A study of Glycine max with 12 samples.

Results

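A group of 133 soybean (Glycine max) genes had lower transcript levels at high manganese (Mn) in old leaves and nearly equal group means at both Mn levels in young leaves. They were chosen from 39811 listed genes by their measured values. Values are FPKM, fragment numbers of a gene corrected for its length and for the size of its library. A change R was taken as the log2 ratio of the group means at 100 µM over 5 µM Mn, each with 1 added. Members had an R of -1 or lower in old leaves and an R from -0.3 to 0.3 in young leaves. Their mean in old leaves at 5 µM was at least 5 FPKM, and all 3 old-leaf values at 100 µM lay below all 3 at 5 µM. The 4 groups had 3 libraries each and were old leaves at 100 µM Mn, old leaves at 5 µM Mn, young leaves at 100 µM Mn and young leaves at 5 µM Mn. At the start of the fifth leaf stage the plants went into nutrient solution holding one of the 2 Mn levels, with Mn given as MnSO4. The sources used here do not give the cultivar, the length of treatment, the position of the leaves on the plant or the number of plants per library. Nothing says that the replicates came from separate plants, so the spread between them may be technical.

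Mn is an essential micronutrient. It sits in the oxygen-evolving cluster of photosystem II, where water is split, and serves as a cofactor of several enzymes. In excess it is toxic to leaves. Mn moves with the transpiration stream and is poorly mobile in the phloem, so old leaves tend to accumulate it. Soybean descends from a polyploid ancestor, and many of its genes have close copies.

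The members are known here only by their Wm82.a2.v1 gene IDs. The available RefSeq gene table matched 0 of 39811 IDs, so no function is given to a member, and 22 lists of pathways set up by gene name were not applied. For the same reason the leaf label was not checked against leaf markers, although the extraction text speaks of nodules, and no sequence of a member is shown. Whole fragment numbers were recovered from the FPKM values and gave 17774122 to 21070730 fragments per library. Old leaves at 5 µM varied more between replicates than the other groups: over 28267 genes tested the median SD of log2(FPKM + 1) was 0.27 there and 0.14 in each of the other 3 groups.

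The members ranged from weakly to strongly expressed genes. Over the 133 genes the median of the group means was 6.17 FPKM in old leaves at 100 µM and 21.7 FPKM in old leaves at 5 µM. In young leaves it was 10.7 FPKM at 100 µM and 11.96 FPKM at 5 µM. The group means ran from 0.177 to 146.7 FPKM in old leaves at 100 µM and from 5.20 to 468.8 FPKM in old leaves at 5 µM. In old leaves at 5 µM, 36 members had a mean of 5 to 10 FPKM and 15 had 100 FPKM or more. A member had 88 to 42250 fragments over the 3 old-leaf libraries at 5 µM, with a median of 2505, while 8 members had fewer than 10 fragments in at least 1 library.

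Because the rule fixed these values, the changes are given as a description with no test. R in old leaves ran from -3.16 to -1.01 with a median of -1.44. It was -2 or lower in 24 members, between -2 and -1.5 in 38 and above -1.5 in 71. Over all genes tested the median R was 0.07 in old leaves. The cutoff at -1 lay in a dense part of the distribution. The 2 members nearest to it had R of -1.013 and -1.006, and the 2 nearest genes that met every other condition had -0.9965 and -0.9955. Within the same young-leaf window, 23 members lay between -1.1 and -1 and another 30 genes between -1 and -0.9.

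**Figure D1:**
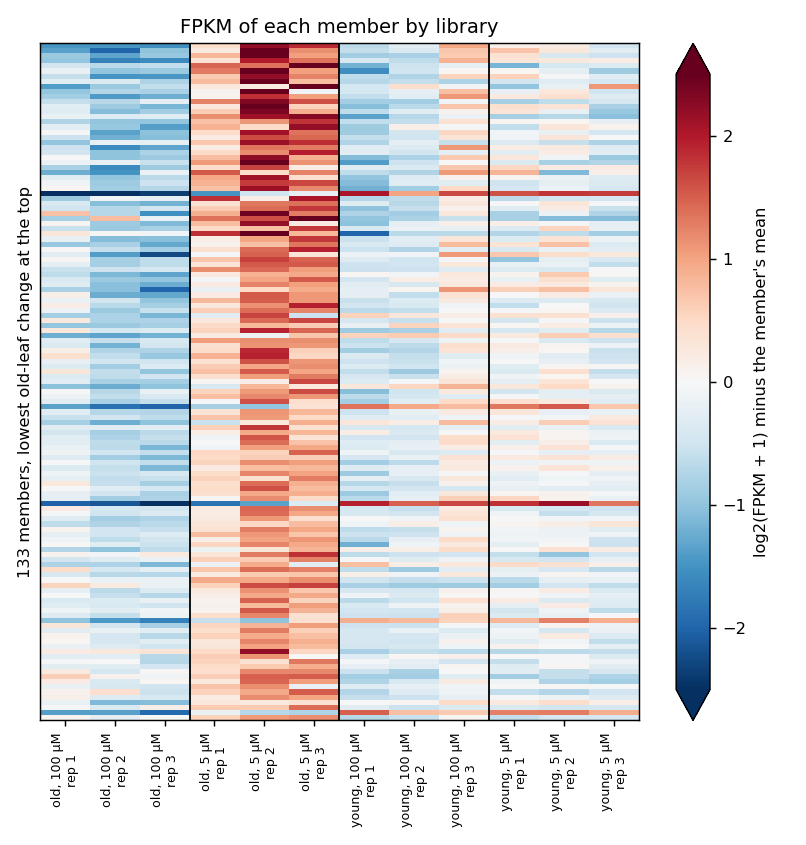
Heat map of the 133 members (one line each, lowest old-leaf change at the top) in the 12 libraries, as log2(FPKM + 1) minus the member's mean over all libraries; the colour scale saturates at 2.5 in both directions. Old leaves at 5 µM are high and old leaves at 100 µM low, as the rule requires, and in 10 members the average of both young-leaf group means is above both old-leaf means.

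Summed over the members, the per-library total was 2810, 1881 and 1799 FPKM in old leaves at 100 µM, against 4313, 8313 and 6428 FPKM in old leaves at 5 µM. In young leaves the sum was 2491, 2539 and 3869 FPKM at 100 µM, against 3194, 3406 and 2805 FPKM at 5 µM. The old-leaf groups were apart in this sum, with replicate 1 the highest at 100 µM and the lowest at 5 µM. The young-leaf groups overlapped, and replicate 3 at 100 µM was above all other young-leaf libraries. In fragments, the members took 0.495, 0.334 and 0.336% of a library in old leaves at 100 µM, against 0.752, 1.47 and 1.13% in old leaves at 5 µM. In whole leaves, fewer cells of a type and less RNA per cell cannot be told apart.

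The member with the lowest R, Glyma.03G236300.Wm82.a2.v1, had 3.85, 3.85 and 3.62 FPKM in old leaves at 100 µM, against 17.0, 59.9 and 47.8 FPKM in old leaves at 5 µM. In young leaves it had 7.51, 10.1 and 25.05 FPKM at 100 µM, against 13.9, 14.3 and 8.496 FPKM at 5 µM. The 3 old-leaf values at 100 µM were almost equal and below all 9 others, whereas the values at 5 µM spread widely. R was -3.16 in old and 0.20 in young leaves.

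Glyma.18G198000.Wm82.a2.v1 came next, with R of -3.02 in old and -0.28 in young leaves. Its old-leaf values were 0.966, 0.2496 and 1.52 FPKM at 100 µM, against 4.90, 28.5 and 10.2 FPKM at 5 µM. Its young-leaf values were 2.33, 2.93 and 7.01 FPKM at 100 µM, against 7.27, 5.09 and 3.18 FPKM at 5 µM. In both genes replicate 2 was the highest old-leaf library at 5 µM, and replicate 3 the highest young-leaf library at 100 µM.

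The most abundant member, by its mean in old leaves at 5 µM, had 252.0, 95.7 and 92.4 FPKM in old leaves at 100 µM, against 262, 659 and 485 FPKM at 5 µM. Its lowest value at 5 µM was only slightly above its highest at 100 µM. Its young-leaf values were 195, 147 and 290 FPKM at 100 µM, against 224, 262 and 203 FPKM at 5 µM, and these groups overlapped. The next in abundance had 133, 109 and 75.5 FPKM in old leaves at 100 µM, against 263, 429 and 321 FPKM in old leaves at 5 µM, so that its groups were well apart. Across the members, the lowest old-leaf value at 5 µM divided by the highest at 100 µM had a median of 1.53 and ran from 1.003 to 4.67. It was below 1.2 in 27 members and 2 or more in 32.

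**Figure D2:**
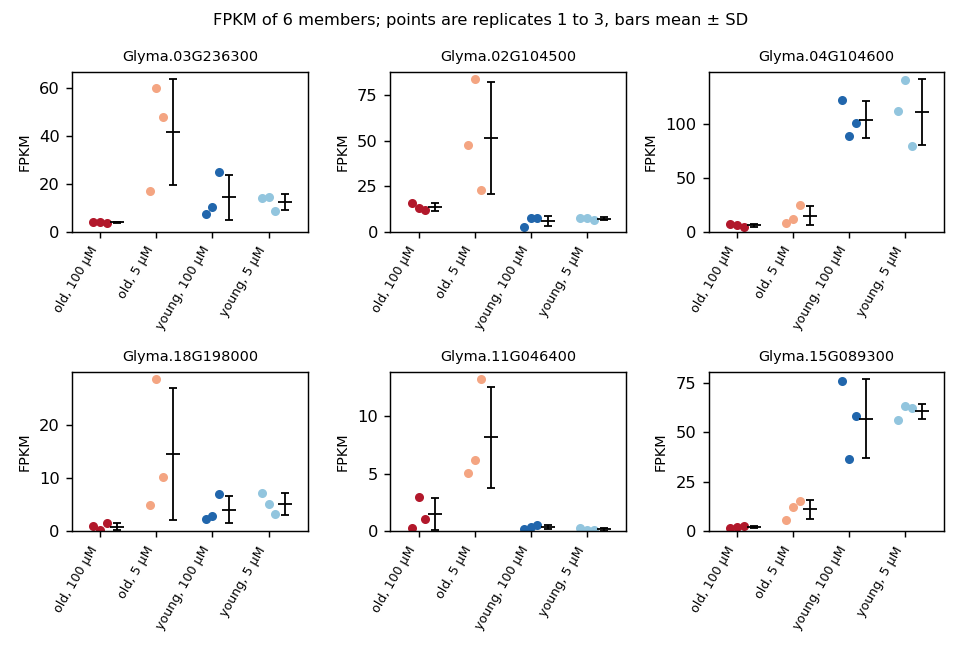
FPKM of 6 members in the 4 groups; each point is a library and each bar the mean ± SD of 3. The left pair has the lowest old-leaf change, the middle pair the highest leaf age difference (old minus young) and the right pair the lowest, with young-leaf means of 104.0 and 110.9 FPKM in the upper right panel against 5.66 and 14.7 FPKM in old leaves.

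Members differed in where the nearly flat young-leaf level lay relative to the old-leaf levels. In 91 members the mean of the young-leaf groups lay between the old-leaf means at 100 and 5 µM. In 32 it lay below the old-leaf mean at 100 µM, and in 10 above the old-leaf mean at 5 µM. The old-leaf mean at 100 µM was below both young-leaf means in 87 of the 133 members. The rule favours this order, as it chose genes that were low in old leaves at 100 µM. No share over all genes is given, so nothing is read from the count. In 78 members every old-leaf value at 5 µM was above every young-leaf value, where 13% of all genes tested were, but the rule used the old-leaf values at 5 µM. In 6 members every old-leaf value at either Mn level was above every young-leaf value, where 9.42% of all genes tested were. In 5 every old-leaf value was below every young-leaf value, where 12.8% of all genes tested were. The rule holds the old-leaf groups apart, which makes full separation of the leaf ages harder in either direction. Nothing is therefore read from these low shares. For the 91 members in between, the median group means were 6.89 FPKM in old leaves at 100 µM, 25.9 FPKM in old leaves at 5 µM, 11.6 FPKM in young leaves at 100 µM and 12.6 FPKM in young leaves at 5 µM.

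The 10 members with the high young-leaf level were marked off only by a mean above that of old leaves at 5 µM. Whether they form a separate set was not tested. In 8 of the 10 both young-leaf means were above the old-leaf mean at 5 µM, and in 5 every old-leaf value was below every young-leaf value. Their group means ran from 1.72 to 18.2 FPKM in old leaves at 100 µM and from 5.86 to 55.1 FPKM in old leaves at 5 µM. In young leaves they ran from 6.54 to 104.0 FPKM at 100 µM and from 6.14 to 110.9 FPKM at 5 µM. Their R in old leaves had a median of -1.35 and a range of -1.92 to -1.01. By the rule and by how the 10 were marked off, the old-leaf mean at 100 µM had to be lowest in each. The mean of the young-leaf groups had to be highest.

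Leaf age, averaged over both Mn levels, was the comparison closest to being free of the rule. The contrast of the old-leaf mean minus the young-leaf mean gives the Mn levels equal weight and is orthogonal to both Mn contrasts. That makes it independent of them only where the groups vary equally. Old leaves at 5 µM varied more, with a median SD of 0.27 over genes tested against 0.14 in old leaves at 100 µM. Choice by a low R in old leaves can therefore also favour genes with a high old-leaf average. It was tested with limma on log2(FPKM + 1) over 28267 genes, with Benjamini-Hochberg adjustment and calls below an adjusted p of 0.05. The floor of 5 FPKM in old leaves at 5 µM still favours genes that are high in old leaves. All 133 members passed the expression filter of 1 FPKM in at least 3 libraries, but 6 of them passed only through the old-leaf libraries at 5 µM, where the rule made them high.

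By this test 59 of the 133 members (44.4%) were higher in old leaves, where 30.7% of all genes tested were. Among the 15008 genes that met the floor the share was 39.1%, so the members' share was near that background. With the filter applied to the other 9 libraries, 54 of 127 members (42.5%) were higher, against 30.6% of all 27954 genes then tested and 39.1% of those at the floor. The 6 members left out held 5 of the 59. Lower in old leaves were 12 members (9.02%), where 24% of all genes tested and 14.7% of those at the floor were. With the filter on 9 libraries these were the calls of 12 of 127 members (9.45%), against 24.2% of all genes and 14.7% of those at the floor. The median log2 difference was 0.41 over the members, 0.08 over all genes tested and 0.18 over those at the floor. The 59 higher members had log2 differences of 0.33 to 1.86, and the 12 lower ones of -3.47 to -0.45. All 10 members with the high young-leaf level were among the 12, a direction that their choice by that level had set.

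Glyma.02G104500.Wm82.a2.v1 had the highest leaf age difference of the called members. Its values were 15.8, 12.8 and 11.8 FPKM in old leaves at 100 µM and 47.7, 83.8 and 22.9 FPKM in old leaves at 5 µM. In young leaves it had 2.36, 7.48 and 7.46 FPKM at 100 µM and 7.18, 7.72 and 6.40 FPKM at 5 µM. All 6 old-leaf values were above all 6 young-leaf values, with a log2 difference of 1.86 (SE 0.30, limma adjusted p = 3e-04).

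Glyma.11G046400.Wm82.a2.v1 was barely expressed in young leaves. It had 0.325, 3.02 and 1.11 FPKM in old leaves at 100 µM and 5.08, 6.19 and 13.2 FPKM in old leaves at 5 µM, against 0.191, 0.359 and 0.598 FPKM in young leaves at 100 µM and 0.342, 0.118 and 0.118 FPKM at 5 µM. The young-leaf libraries held 2 to 10 of its fragments each, against 5 to 188 in the old-leaf libraries. One old-leaf library at 100 µM thus lay within the young-leaf range. This gene was 1 of the 6 that passed the filter only through old leaves at 5 µM, so its log2 difference of 1.77 is given with no test. Its size depended on the number added before the logarithm, being 3.07 with 0.1 and 0.77 with 5.

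In the other direction, Glyma.04G104600.Wm82.a2.v1 had 6.90, 6.32 and 3.77 FPKM in old leaves at 100 µM and 7.95, 11.7 and 24.4 FPKM in old leaves at 5 µM. Its young-leaf values were 122, 89.0 and 101 FPKM at 100 µM and 112, 141 and 79.8 FPKM at 5 µM, all above the old-leaf values. The log2 difference was -3.47 (SE 0.25, limma adjusted p = 4.9e-07).

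Glyma.15G089300.Wm82.a2.v1 behaved alike in leaf age, with 1.82, 2.18 and 2.60 FPKM in old leaves at 100 µM and 5.79, 12.3 and 15.3 FPKM in old leaves at 5 µM. It had 76.1, 36.4 and 58.1 FPKM in young leaves at 100 µM and 56.2, 63.4 and 62.3 FPKM at 5 µM. The groups of the 2 leaf ages did not overlap, and the log2 difference was -3.28 (SE 0.22, limma adjusted p = 3.2e-07). Its R of -1.92 in old leaves was the lowest of the 10 members with the high young-leaf level.

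**Figure D3:**
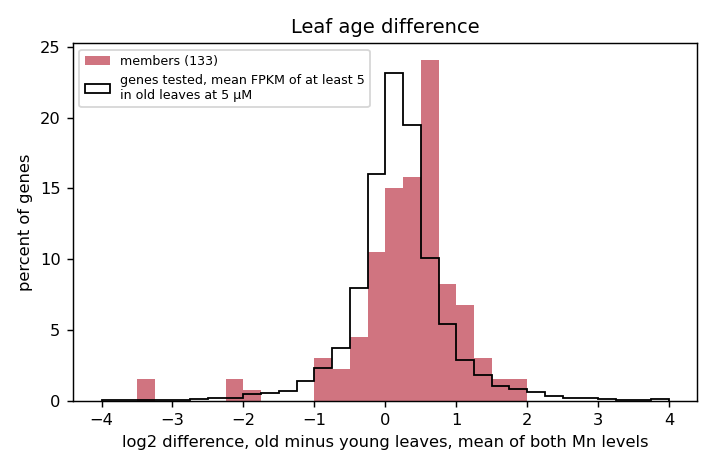
Histogram of the leaf age difference (log2, old minus young leaves, mean of both Mn levels; vertical axis in percent of genes) for the 133 members and for the 15008 genes tested that met the floor in old leaves at 5 µM; genes of the outline beyond 4 are placed in the end bins. The members have a median of 0.41 and the outlined genes one of 0.18.

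At each Mn level alone, the leaf age difference shares its libraries with the rule and is given with no test. The median log2 difference of old minus young leaves was -0.22 over the members at 100 µM, with quartiles of -0.68 and 0.05. At 5 µM it was 1.05, with quartiles of 0.72 and 1.45. Over all genes tested the medians were -0.03 at 100 µM and 0.16 at 5 µM.

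The members moved together between replicates of a group. The rule set no condition on which replicate was highest, but it used the same values, so the pattern is not independent of it. Replicate 1 was the highest of the old-leaf libraries at 100 µM in 102 of the 133 members, against 34.2% of all genes tested. Replicate 3 was the highest of the young-leaf libraries at 100 µM in 106 members, against 32.0% of all genes tested. The other 637 genes with the same old-leaf difference and any other young-leaf change showed it too, with 83.2% highest in replicate 1 of old leaves at 100 µM and 77.6% highest in replicate 3 of young leaves at 100 µM. The pattern is therefore not particular to the members. As the genes share their libraries, these shares are a description.

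Relative to the mean of its group, the median member stood at 1.24, 0.873 and 0.882 in the old-leaf libraries at 100 µM and at 0.637, 1.23 and 1.07 in those at 5 µM. In young leaves it stood at 0.815, 0.880 and 1.31 at 100 µM and at 1.01, 1.08 and 0.879 at 5 µM. The members spread more between replicates than the genes tested at the floor did in all 4 groups. Their median SD of log2(FPKM + 1) was 0.31 in old leaves at 100 µM, 0.61 in old leaves at 5 µM, 0.38 in young leaves at 100 µM and 0.21 in young leaves at 5 µM. Over the genes tested at the floor the medians were 0.14, 0.29, 0.12 and 0.13 in the same order. The rule used values of all 4 groups, and no spread is given for the other genes with the old-leaf difference. The wider spread is therefore not shown to be particular to the members.

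**Figure D4:**
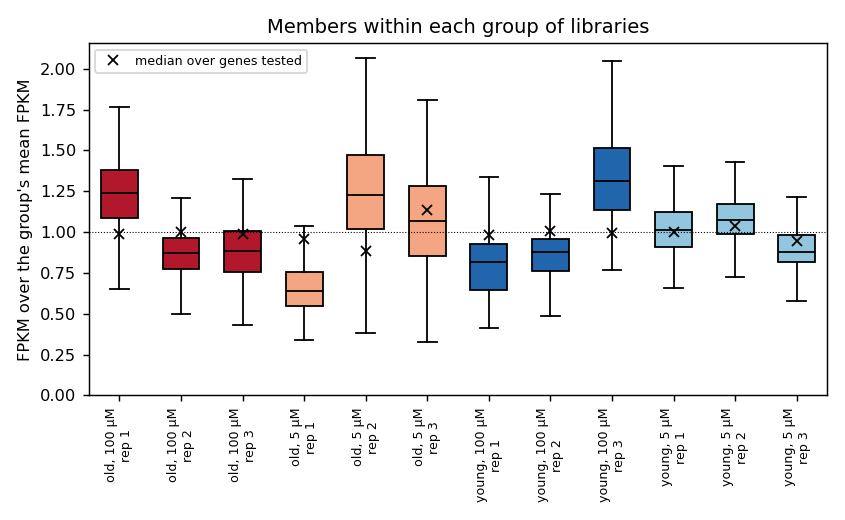
FPKM of the 133 members divided by each member's group mean, by library; boxes show quartiles and median, whiskers reach 1.5 times the box length, outliers are not drawn, and crosses are medians over all genes tested. Replicate 1 of old leaves at 100 µM (median 1.24) and replicate 3 of young leaves at 100 µM (1.31) lie above their groups, and replicate 1 of old leaves at 5 µM (0.637) below.

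The flat mean of young leaves rested in part on replicate 3 at 100 µM. With all libraries the median R of the members in young leaves was -0.10. Without that library it was -0.27, and 62 of the 133 members lay below -0.3. Without replicate 1 or replicate 2 at 100 µM the median was 0.03 or -0.03. Leaving out replicate 3 of young leaves at 5 µM gave -0.17, with 30 members below -0.3. Reapplied without replicate 3 at 100 µM, the rule gave 100 genes, 71 of them among the 133.

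Scaling bears on the label as well. Over all genes tested the median R in young leaves was 0.27, so a member at 0 lay below the typical gene there. After rescaling the libraries by median-of-ratios factors, the median R in young leaves was -0.01 over all genes tested and -0.41 over the members, and 85 of the 133 members lay below -0.3. In old leaves the members' median was -1.54 on that scale, and all 133 remained at -1 or lower. The rescaled table gave 102 genes by the same rule, 48 of them shared. The name "lowered in old leaves only" therefore holds for FPKM as deposited; on the rescaled values most members were also lower in young leaves at 100 µM, by less than in old leaves.

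**Figure D5:**
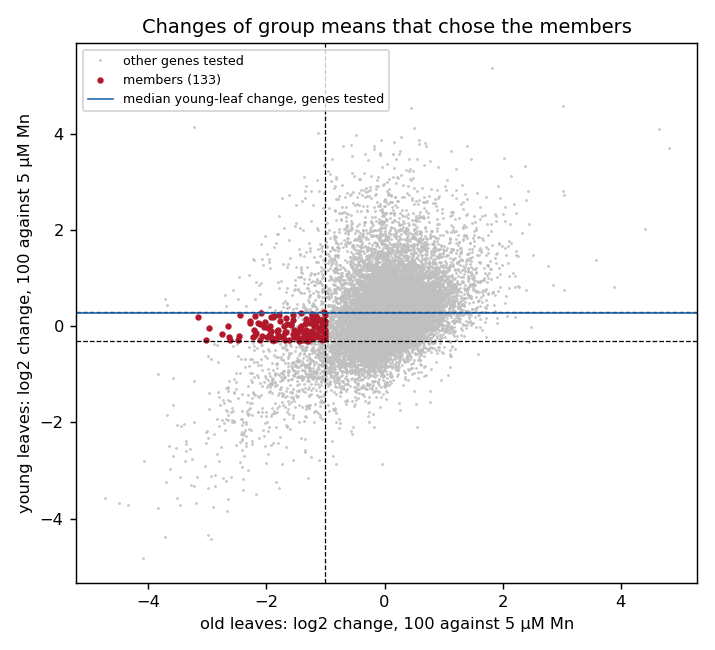
Change R of the group means (log2, 100 against 5 µM Mn) in old leaves (horizontal) and young leaves (vertical) for the 28267 genes tested, with the 133 members in red and the cutoffs of the rule dashed. The solid line at 0.27 is the median young-leaf change over all genes tested and runs close to the upper cutoff at 0.3.

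Fitted across all genes, the Mn contrasts were used by the rule, so the following counts are printed beside their backgrounds and nothing is read from them. In old leaves 123 of the 133 members were called lower at 100 µM in the limma model of 12 libraries, where 5.31% of all genes tested were. With the 6 old-leaf libraries alone it was 43 members, where 1.85% of all genes were. In young leaves 0 members were called at an adjusted p below 0.05 by limma, and 0 at an unadjusted p below 0.05. Over all genes tested, 5.58% were called lower and 29.6% higher in young leaves. For the difference of the Mn responses, 30 members were called more negative in old leaves, where 3.75% of all genes were, and 0 were called more positive, where 0.916% of all genes were.

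In old leaves at 5 µM the members were sorted by their highest library. The sorting used values of the rule and itself makes the groups, so no separate kinds are shown. Replicate 2 was the highest in 80 members, replicate 3 in 51 and replicate 1 in 2, whereas over all genes tested the shares were 15.3, 60.1 and 24.6%. Members highest in replicate 2 stood at a median of 0.621, 1.42 and 0.929 of their group mean in replicates 1, 2 and 3, and those highest in replicate 3 at 0.659, 0.957 and 1.40. Replicate 1 was the lowest in 104 of the 133.

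The young-leaf libraries are given for the 80 and the 51 with no test. In young leaves at 5 µM, replicate 1 was the highest library for 42 of the 80 and for 5 of the 51. Among all genes tested, it was the highest for 40.6% of those highest in replicate 2 of old leaves at 5 µM and for 27.1% of those highest in replicate 3. Replicate 2 was the highest there for 32 of the 80 and for 38 of the 51, against 37.3% and 55.6% of all such genes. Deviations of these libraries thus went together over genes in general, and the relation is not shown to be a trait of the members. In young leaves at 100 µM, replicate 3 was the highest for 69 of the 80 and for 36 of the 51, against 43.5% and 33.3% of all such genes. Their median R in old leaves was nearly the same, at -1.43 and -1.44.

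The old-leaf change without each library in turn comes from the values the rule used and is a description. It was -1 or lower under each of the 6 omissions in 80 members and above -1 under at least 1 in 53. Without replicate 2 of old leaves at 5 µM the median R was -1.24, and 32 members were above -1. Without replicate 3 it was -1.36, with 23 above -1, and without replicate 1 it was -1.63, with 2 above -1. Leaving out one old-leaf library at 100 µM gave medians of -1.57, -1.33 and -1.37, with 0, 12 and 15 members above -1 for replicates 1, 2 and 3.

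The members came from all 20 chromosomes named in the IDs, with 2 IDs that name none. There were 12 each for chromosomes 8 and 17 and 1 for chromosome 9, which is 0.051 to 0.62 members per 100 listed genes of a chromosome. In 7 cases 2 members had at most 5 listed genes between their IDs, and 3 of these pairs had none between. One such neighbouring pair, on chromosome 19, had short gene lengths of 284 and 437 bases. The shorter had 0, 0.760 and 0.698 FPKM in old leaves at 100 µM, against 2.17, 7.89 and 6.14 FPKM in old leaves at 5 µM. The longer had 0.478, 0.370 and 0.907 FPKM in old leaves at 100 µM, against 4.22, 10.03 and 5.79 FPKM in old leaves at 5 µM. Both were highest in replicate 2 at 5 µM. Fragments of near-identical copies could be counted in either, but whether these genes are such copies was not tested. Gene length, as recovered from the FPKM values, had a median of 1933 bases over the members and 1873 bases over all genes tested.

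Among genes with the old-leaf difference, the members were a minority. The same difference, floor and separation of old-leaf groups held for 770 genes, of which the members were 17.3%. In young leaves 541 of the 770 had an R below -0.3 and 96 had one above 0.3. Among all 15008 genes tested at the floor, 42.3% had a young-leaf R within 0.3 of 0. The median leaf age difference, averaged over Mn levels, was 0.41 for the members, 0.11 for the 541 and 0.50 for the 96. Just outside the young-leaf window, 82 genes had an R from -0.6 to -0.3 and 32 one from 0.3 to 0.6.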

How the data were processed

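The authors deposited 1 table of FPKM for 39811 genes and 12 libraries. DESeq2 1.6.3, HISAT2 2.1.0 and Bowtie2 2.2.3 are named in the submitters' processing notes, which do not say what each did. The counting rule, strand setting and treatment of gene copies are not stated in those notes or the labels. Fragment totals and gene lengths were solved from ratios of FPKM between libraries, and all 39811 genes gave whole fragment numbers within 0.02. On simulated libraries 12 of 12 totals were exact.

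The fit took the 28267 genes that reached 1 FPKM in 3 or more libraries, as log2(FPKM + 1) with 4 group means in limma 3.58.1 (R 4.3.3), with trended moderated variances, 2-sided tests and Benjamini-Hochberg adjustment. The fit was checked on simulated data. Fold changes on this scale understate those of weakly expressed genes. Genes named were the 2 members with the lowest R and, among members called for leaf age, the 2 highest and 2 lowest (1 of them with no test, as it passed the filter only through old leaves at 5 µM); more IDs were not printed as no names were paired with them, and the other members with values of their own are described without an ID. These were the 2 most abundant, and a neighbouring pair chosen after its values were seen. The members and lists were chosen with earlier results of these data known. The alternatives were other pseudocounts, filters, scalings and variance models, the replicate number as a term, voom, and leaving out each library.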

Additional observations from a re-analysis of the deposited data

How the results depend on the processing

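The rule gave 133 genes on the values as deposited and 91 to 174 under other pseudocounts, rescaling, medians, centring or no condition on overlap. Leaving out 1 library gave 100 to 245. The 245 came without replicate 1 of old leaves at 5 µM and 232 without replicate 1 of old leaves at 100 µM; these held 130 and 133 of the members, and the cause was not tested. Members called higher in old leaves for leaf age numbered 42 to 60 under the other settings and 41 to 66 with 1 library left out. Those called lower numbered 12 to 17 and 10 to 15. Outside the main fit and the filter on 9 libraries, the shares over all genes are not given. The counts are therefore not compared with a background there. The labels do not say whether the replicate numbers pair the samples. Deviations of same-numbered libraries correlated at -0.47 to 0.26, with 6 of 18 above 0.1. Those of other-numbered libraries correlated at -0.42 to 0.41, so these values cannot decide it. With the replicate number as a block, 51 members were higher and 12 lower. The filter on 9 libraries was chosen after seeing the data. The 3 members named with a test for leaf age kept direction and call in 22 other limma settings each, with adjusted p of 0.0011 or less. They were picked as extremes of this contrast and the fits share most libraries, so this says little of the other members. Of all genes, 1502 were called lower at 100 µM in old leaves. This was 524 with the 6 old-leaf libraries alone and 836 to 1981 with 1 library left out (871 and 836 without replicates 2 and 3 at 100 µM). In young leaves 1578 were called lower, against 3620 after median-of-ratios rescaling, 993 when genes averaging below 5 FPKM were dropped, 2511 with array weights and 1003 to 2205 with 1 library left out (1048 without replicate 2 at 100 µM, 1003 without replicate 3 at 5 µM). The cause of the shifts in young and old leaves was not tested. Fewer genes were tested under the stricter filter, and the fits without some libraries had fewer samples. Depth limits the 8 members with fewer than 10 fragments in a library.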
